A study of Homo sapiens with 9 samples.

Results

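The hairpins of miR-190a, miR-589 and miR-876 each give rise to a 5p and a 3p mature arm, and these 6 arms were followed through a trapping experiment on the 3'UTR of *PD-L1*. They were taken by name from the 2652 mature miRNA names of the count table, and the hairpins were chosen by the strong retention of hsa-miR-190a-5p, hsa-miR-589-3p and hsa-miR-876-3p on the 3'UTR in these same libraries. No numerical threshold was part of that choice. The levels of the 3 leading arms on this bait, and every comparison of its libraries with the others, therefore chose the members and are given as a description, with no test. Their partners, hsa-miR-190a-3p, hsa-miR-589-5p and hsa-miR-876-5p, were included to compare the arms of each hairpin.

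A hairpin precursor is cut by Drosha and Dicer into a short duplex, and usually a single strand of it is loaded into an Argonaute protein while the other is discarded. The loaded strand finds target mRNAs mainly through its seed, the bases just behind its 5′ end, and then lowers their stability and translation. *PD-L1*, encoded by *CD274*, is the surface ligand by which tumor cells engage PD-1 on T cells, and its long 3'UTR is a known platform for miRNA control.

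The mature sequences are shown because the arms of a hairpin carry different seeds, and the seed decides which sites in a 3'UTR can pair. They were taken from RefSeq (GRCh38.p14), which held all 6, and run 5′ to 3′ with the seed, bases 2 to 8, in capitals.
hsa-miR-190a-5p: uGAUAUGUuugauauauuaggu
hsa-miR-190a-3p: cUAUAUAUcaaacauauuccu
hsa-miR-589-5p: uGAGAACCacgucugcucugag
hsa-miR-589-3p: uCAGAACAaaugccgguucccaga
hsa-miR-876-5p: uGGAUUUCuuugugaaucacca
hsa-miR-876-3p: uGGUGGUUuacaaaguaauuca
No seed was shared between the 6 arms. miR-190a-5p stood out by base composition, with 22.7% G and C against a median of 47.8% over the 371 tested miRNAs that had a sequence, and only 1 of these had a lower share. miR-876-3p was also poor in G and C, at 31.8%, with 10 tested miRNAs below it, whereas miR-589-3p, at 50%, had 191 below it. The leading arms began with U, as did 43.1% of the tested miRNAs.

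The hairpins lie on different chromosomes, each inside a protein-coding gene and on its strand. MIR190A (GRCh38.p14, plus strand) lies in *TLN2*, encoding talin-2, which links integrins to actin. Its 5p arm spans chr15:62823971-62823992 and its 3p arm chr15:62824008-62824028. MIR589 (minus strand) lies in *FBXL18*, encoding an F-box protein of ubiquitin ligases, with the 3p arm at chr7:5495834-5495857 and the 5p arm at chr7:5495873-5495894. MIR876 (minus strand) lies in *LINGO2*, encoding a leucine-rich repeat membrane protein known from neurons, with the 3p arm at chr9:28863636-28863657 and the 5p arm at chr9:28863675-28863696. In the GENCODE annotation of GRCh37, no protein-coding transcript that spanned a hairpin had an exon over it, which places all 3 hairpins in introns. Each arm had a single locus in the count table.

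Lysates of ES-2 cells, an established ovarian cancer line labelled wild type and untreated, were used in all 9 small RNA libraries. Input libraries came from untrapped lysate. In miTRAP, a bait RNA with MS2 loops is fixed to a resin through an MS2-binding protein and fishes miRNAs, with their proteins, out of the lysate. The bait of the MS2 control carried no 3'UTR, that of the PD-L1 3'UTR group carried it, and each of the 3 groups had 3 libraries. Per the study's methods, much more of the PD-L1 3'UTR bait than of the MS2 control bait was used, so bait sequence and bait amount cannot be told apart. The labels give no clone or passage for the line.

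Library totals lay between 3794799 and 5983577 counts in the input, between 1156261 and 2236535 in the MS2 control and between 672824 and 1237652 in the PD-L1 3'UTR group. Levels are counts-per-million (CPM), scaled by TMM factors; mature miRNAs are read whole, so no division by length was made. The limit that a count of 0 allows, taken as 3 counts, was worth between 0.675 and 4.02 CPM in a library. Over the pooled libraries of a group it was worth 0.267 CPM in the input, 0.556 in the MS2 control and 0.847 in the PD-L1 3'UTR group. Of 14 miRNA markers of epithelial, blood, liver and muscle cells, miR-429 was at 0 in all libraries. The summed markers took 0.417% of the counts in PD-L1 3'UTR replicate 1, against 0.0832% and 0.0681% in replicates 2 and 3. They took between 0.0531% and 0.0767% in the MS2 control and between 0.0189% and 0.0246% in the input. The muscle marker miR-1-3p had 2024 counts in PD-L1 3'UTR replicate 1 and 75 and 35 in the other two. Replicate 1 of the PD-L1 3'UTR thus stands apart, and the part of this in the results was not tested. Ratios that involve the 3'UTR libraries are also given without it.

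Of the 6 arms, miR-190a-5p, miR-589-3p, miR-876-3p and miR-589-5p had counts. These 4 passed the filter on low counts, as did 408 of the 2652 names. The filter asked for 8.05 CPM (on library totals) in 3 libraries. The 3 leading arms reached this level in 3 of 3 PD-L1 3'UTR libraries and in 0 libraries of the other groups, so that they could enter the fit only by being high with the 3'UTR. miR-589-5p reached it in every library. The partner arms miR-190a-3p and miR-876-5p had 0 counts in all 9 libraries.

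miR-190a-5p, a miRNA known to repress the AKT phosphatase PHLPP1, was scarce in the lysate and plentiful on the 3'UTR. Input replicates 1, 2 and 3 had 12, 8 and 13 counts, or 3.15, 2.69 and 2.93 CPM. In the MS2 control, replicate 2 had 6 counts (2.38 CPM), and replicates 1 and 3 had 0. Replicates of the PD-L1 3'UTR had 204, 121 and 209 counts, or 144, 162 and 151 CPM. The 3'UTR libraries were far above the other 6 and close to each other, the highest being 1.12 times the lowest. The highest MS2 control library was just under the lowest input library, a gap of few reads. Group means were 2.92 CPM ± 0.23 (SD, n = 3) in the input, 0.792 ± 1.37 in the MS2 control and 153 ± 8.99 with the 3'UTR.

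The ratio of pooled levels of miR-190a-5p between the PD-L1 3'UTR and the MS2 control was 136, with a 95% counting interval from 61.9 to 371. It was 140 without PD-L1 3'UTR replicate 1. Against the input the ratio was 51.3 (36.1 to 75.3), or 52.8 without that replicate. The log2 fold changes fitted by edgeR were 7.11 ± 0.61 (SE) against the MS2 control, in place 6 of 408 from the highest, and 5.67 ± 0.52 against the input, in place 13. All 6 MS2 control counts came from replicate 2. Without that library miR-190a-5p was at least 144-fold higher with the 3'UTR, and the fitted value was 11.40, which depends on the prior count and is no bound. By mean CPM, miR-190a-5p stood at place 355 of the 408 miRNAs in the input, 395 in the MS2 control and 140 with the 3'UTR.

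miR-589-3p had the lowest level of the leading arms on the 3'UTR, with 19, 7 and 17 counts in PD-L1 3'UTR replicates 1, 2 and 3, or 13.4, 9.38 and 12.3 CPM. The input libraries held 2, 3 and 6 counts, or 0.526, 1.01 and 1.35 CPM, and the MS2 control libraries held 0. The 3'UTR libraries did not overlap with the others, and here replicate 1 was the highest. Means were 0.962 CPM ± 0.414 (SD, n = 3) in the input and 11.7 ± 2.1 with the 3'UTR. On the 3'UTR, miR-589-3p was at least 21.8-fold higher than in the MS2 control, taking 3 counts over the MS2 control group as the limit, and at least 20.3-fold higher without replicate 1. Against the input it was 12.4 times as high (6.28 to 26.6), and 11.5 times (5.43 to 26) without replicate 1. The input mean lies near the limit of a library, so only the pooled counts, 11 in the input and 43 with the 3'UTR, carry this ratio.

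miR-876-3p was close to undetected in the lysate. Input replicates 1 and 3 had 1 count each, replicate 2 had 0, and all 3 MS2 control libraries had 0. The PD-L1 3'UTR libraries held 20, 17 and 46 counts, or 14.1, 22.8 and 33.3 CPM, with a mean of 23.4 ± 9.61 (SD, n = 3). All 3 stood above the other 6 libraries, but they varied more among themselves than the other leading arms did, the highest being 2.36 times the lowest, against 1.43 times for miR-589-3p. The counting intervals of replicate 1 (8.64 to 21.8 CPM) and replicate 3 (24.4 to 44.5 CPM) did not overlap, and the lower of these is the library with the raised markers of other cell types.

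miR-876-3p was at least 42.2-fold higher with the 3'UTR than in the MS2 control, and at least 53.3-fold higher without PD-L1 3'UTR replicate 1. Against the input, where 2 counts carry the value, the ratio was 132 with an interval from 35.3 to 1104, and 166 (44.1 to 1402) without that replicate. The width of these intervals leaves the order of miR-876-3p and miR-190a-5p by their ratio to the input undecided. Both intervals lie above that of miR-589-3p, whose ratio to the input was the lowest of the 3. Among the 408 miRNAs, miR-876-3p moved from place 405 by mean CPM in the input to place 235 with the 3'UTR, and miR-589-3p from place 382 to place 306.

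**Figure D1:**
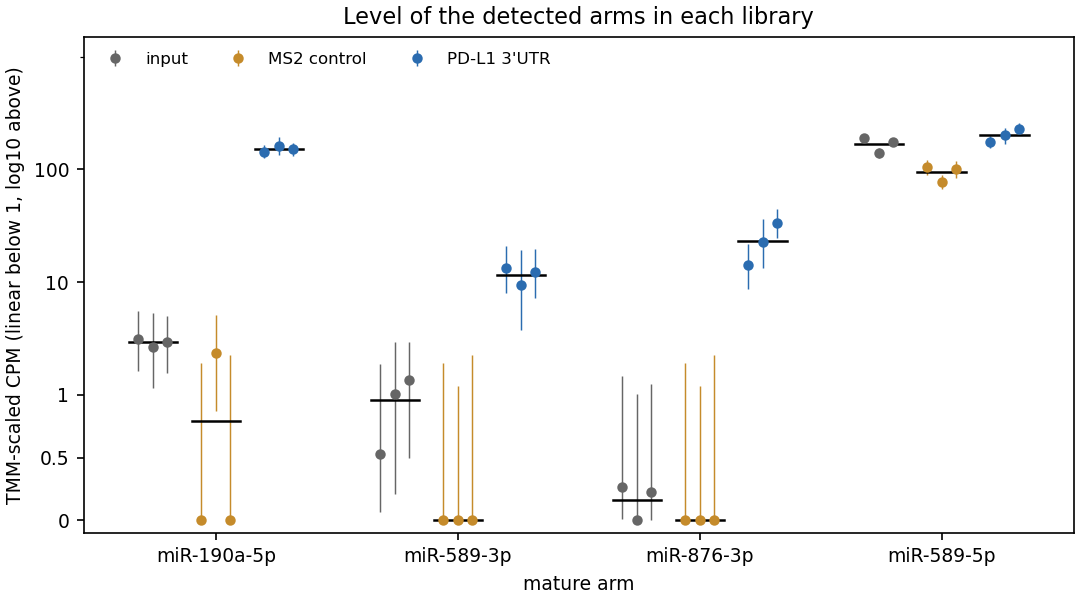
TMM-scaled CPM (linear below 1, log10 above) of the 4 detected arms in each library, with replicates 1 to 3 from left to right in each group, 95% counting intervals as thin bars (up to the worth of 3 counts where a library had 0) and group means as black lines. The 3 leading arms sit at or near 0 in the input and the MS2 control. On the 3'UTR bait, for which they were chosen, they lie between 9.38 and 162 CPM. miR-589-5p lies between 76.8 and 229 CPM in all 9 libraries.

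That the 3 PD-L1 3'UTR libraries all lay above the other 6 was common in this table. It held for 87 of the 408 tested miRNAs (21.3%), and nothing is read from its holding for the leading arms, which were chosen for it. By edgeR at an adjusted p under 0.05, 60.0% of the tested miRNAs were called in either direction between the PD-L1 3'UTR and the MS2 control, 31.4% were called higher, and 32.6% had 3'UTR libraries entirely above those of the MS2 control. Against the input these shares were 66.4%, 34.1% and 37.3%.

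miR-589-5p, the partner of miR-589-3p, was the only partner arm with counts. Nothing is read from a contrast with the leading arms, which were chosen for their retention. Input replicates 1, 2 and 3 had 719, 414 and 783 counts, or 189, 139 and 176 CPM. The MS2 control libraries had 161, 194 and 133 counts, or 104, 76.8 and 101 CPM, and the PD-L1 3'UTR libraries had 249, 149 and 316 counts, or 176, 200 and 229 CPM. The MS2 control libraries were below all others, while the ranges of the input and the 3'UTR overlapped. Means were 168 CPM ± 25.7 (SD, n = 3), 93.8 ± 14.8 and 202 ± 26.5 in the input, the MS2 control and the PD-L1 3'UTR group.

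The pooled level of miR-589-5p with the 3'UTR was 2.23 times that in the MS2 control (1.98 to 2.51), or 2.42 times without PD-L1 3'UTR replicate 1. Its fitted log2 fold change there was 1.11 ± 0.21 (SE), in place 116 of 408. It was 1.18 times that in the input (1.08 to 1.29). Without replicate 1 this rose to 1.28 times, and the libraries of the groups then no longer overlapped. The interval covers counting error only, and the fitted log2 fold change against the input was 0.26 ± 0.20 (SE).

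Whether an empty bait kept a partner arm was asked with the MS2 control and the input. This contrast of miR-589-5p was not the measure that picked it, although its hairpin was chosen through miR-589-3p in these same libraries. The MS2 control bait held less miR-589-5p than the lysate did, with a log2 fold change of -0.85 ± 0.20 (SE) and an adjusted p of 0.00364 by edgeR. Its pooled level was 0.529 times that of the input (0.478 to 0.585), and 3 of 3 MS2 control libraries lay under all input libraries, as they did for 39.7% of the 408 tested miRNAs. In this comparison 69.9% of the miRNAs were called in either direction and 37.0% were called lower. The call held with DESeq2's size factors in place of TMM (-0.77, adjusted p of 0.00623 by edgeR) but not with library totals. There the difference shrank to -0.21 with an adjusted p of 0.371, while the median of all tested miRNAs shifted by 0.63 (log2) in this comparison.

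For the leading arms the MS2 control against the input is a description, since the low MS2 control was part of their choice. miR-190a-5p was at 0.378 times its input level (0.129 to 0.914). Of miR-589-3p, the MS2 control held 0 counts, worth at most 0.556 CPM over the group, against a pooled 0.98 CPM in the input. For miR-876-3p the input level was itself under the limit of the MS2 control, and a difference was not detectable at this depth.

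**Figure D2:**
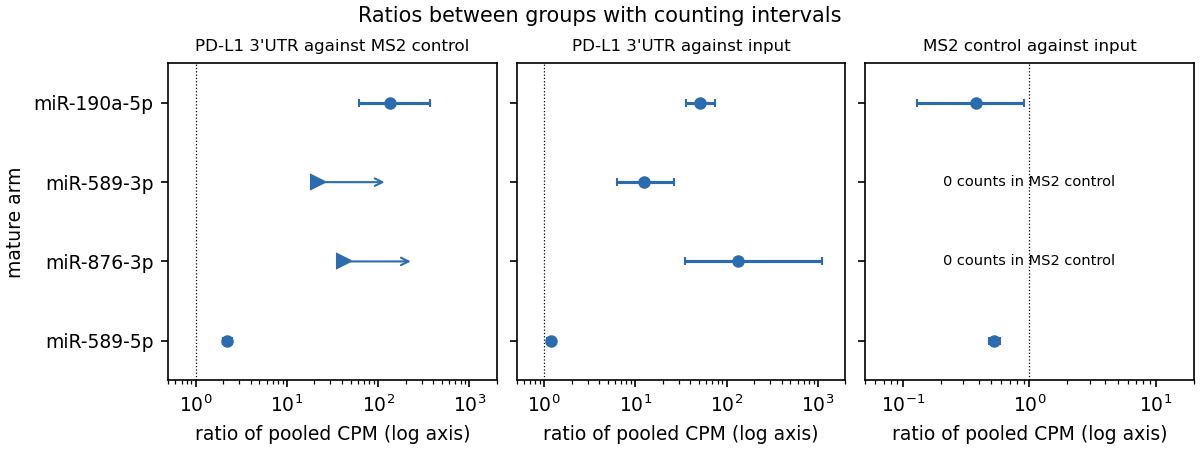
Ratios of pooled CPM between groups on log axes for the 4 detected arms, with points and 95% counting intervals; triangles with arrows are lower bounds from 3 counts over a group at 0, and the dotted line marks equal levels. The leading arms, chosen for this, lie between 12.4 and 132 times their input level with the PD-L1 3'UTR. miR-589-5p lies at 1.18 times.

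The shares of the 2 arms within a hairpin do not depend on how libraries were scaled to each other. For miR-190a every read came from the 5p arm. The 3p arm had 0 of 534 counts on the 3'UTR, which allows a share of up to 0.562%, and 0 of 573 over all libraries (up to 0.524%). In the input, with 0 of 33, a share of up to 9.09% would have gone unseen, so the lysate alone says little about the silent arm. For miR-876 every read came from the 3p arm. Its 5p arm had 0 of 83 counts with the 3'UTR (up to 3.61%) and 0 of 85 over all libraries (up to 3.53%), and with 2 counts in the input and 0 in the MS2 control no share could be compared between groups.

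An arm without reads was not rare. Of 283 hairpins with at least 50 counts over the 9 libraries and both arms in the table, 30 (10.6%) had an arm at 0 in all of them, and miR-190a and miR-876 are among these 30.

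miR-589 gave reads of both arms, with the 5p arm in the majority everywhere. In the input, 11 of 1927 counts were 3p, a share of 0.571% (95% Clopper-Pearson interval 0.285 to 1.02). The libraries had 0.277%, 0.719% and 0.76%. In the MS2 control, 0 of 488 counts were 3p, which allows up to 0.615%, so a change from the input share was not detectable at this depth. With the PD-L1 3'UTR, 43 of 757 counts were 3p, a share of 5.68% (4.14 to 7.58), and replicates 1, 2 and 3 had 7.09%, 4.49% and 5.11%. The lowest 3'UTR library was well above the highest input library.

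Per 1000 reads of miR-589-5p there were 5.74 reads of miR-589-3p in the input and 60.2 with the 3'UTR, a 10.5-fold difference (5.32 to 22.6, with the 5p counts taken as fixed). Without PD-L1 3'UTR replicate 1, which had the highest 3p share, the 3'UTR had 51.6 such reads and the difference was 8.99-fold (4.24 to 20.3). Against the MS2 control it was at least 9.8-fold, or at least 8.4-fold without that replicate. The 5p arm thus outnumbered the 3p arm 174 times in the lysate and 16.6 times on the 3'UTR, so that even there the arm with the larger ratio was the rarer strand.

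**Figure D3:**
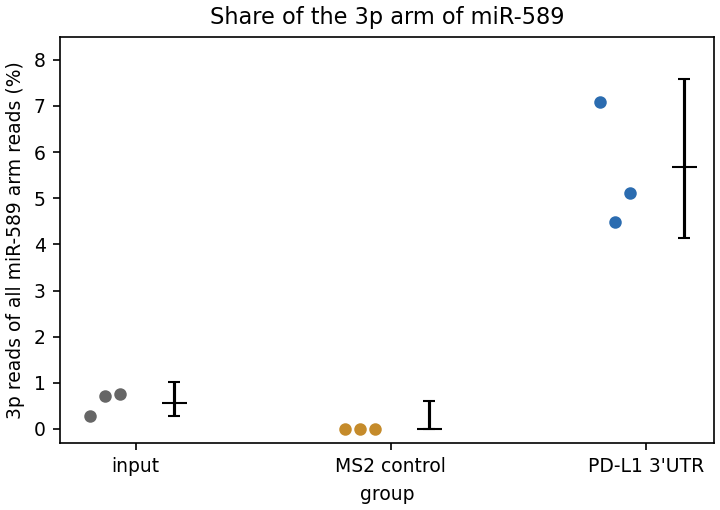
Share of the 3p arm among all miR-589 counts (%), as points per library (replicates 1 to 3 from left to right) and as the pooled share of each group with its 95% Clopper-Pearson interval, or the worth of 3 counts where the group had 0. The PD-L1 3'UTR libraries lie between 4.49% and 7.09%, the input libraries between 0.277% and 0.76%, and the MS2 control libraries at 0.

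Unequal arms were frequent among other hairpins too. For the 101 hairpins with both arms tested, the median absolute difference between the arms' log2 fold changes, PD-L1 3'UTR against input, was 1.96, and the arms moved in opposite directions in 42. The arms of miR-589 differed by 3.28 in this comparison, in place 20 of 101. In the PD-L1 3'UTR against the MS2 control the median difference was 1.82. There the fitted value for miR-589 rests on a group at 0, so only the bound above is given.

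The hairpins were picked as singletons, outside the larger seed families, and their mature sequences bore this out in part. miR-589-3p and miR-190a-3p shared bases 2 to 8, or 2 to 7, with no other name that had a RefSeq sequence (2363 of 2652). miR-876-3p shared bases 2 to 7 with miR-323a-5p alone, which had 0 counts. Its silent partner miR-876-5p shared bases 2 to 8 with miR-3167 and bases 2 to 7 with miR-1290, both at 0 counts as well. Among the 371 tested miRNAs with a sequence, 268 (72.2%) shared bases 2 to 8 with no other tested one. That count leaves out untested names, which the search above took in, and by it miR-190a-5p is alone too. Among all names with a sequence, however, miR-190a-5p shares its whole seed with miR-190b-5p, from a paralogous hairpin. The pair is shown because the first 15 bases are the same and only the 3′ parts differ.
miR-190a-5p: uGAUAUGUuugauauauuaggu
miR-190b-5p: uGAUAUGUuugauauuggguug
miR-190b-5p had 13 counts in all and was not tested. The input held 2, 1 and 3 counts, the MS2 control 0, 2 and 0, and the PD-L1 3'UTR 1, 0 and 4. The groups overlapped. Its ratio to the MS2 control was 3.81 with an interval from 0.624 to 40, and to the input 2.64 (0.638 to 10.4). Without PD-L1 3'UTR replicate 1 these ratios were 5.08 (0.728 to 56.1) and 3.52 (0.73 to 14.8). Whether reads of this pair, alike over the first 15 bases, were assigned without error could not be checked from counts. miR-190b-3p was at 0 in all libraries.

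miR-589-5p shares bases 2 to 7 with miR-7153-5p, which had 0 counts, and with miR-146a-5p and miR-146b-5p, feedback repressors of NF-κB signaling, and base 8 sets the latter apart, as the capitals show.
miR-589-5p: uGAGAACCacgucugcucugag
miR-146a-5p: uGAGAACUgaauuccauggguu
miR-146b-5p: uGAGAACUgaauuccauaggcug
Mean CPM of miR-146a-5p was 924 ± 194 (SD, n = 3) in the input, 351 ± 31.5 in the MS2 control and 1603 ± 218 with the PD-L1 3'UTR. For miR-146b-5p the means were 190 ± 40.2, 338 ± 38.5 and 1644 ± 134. Against the MS2 control, the 3'UTR ratio was 2.23 for miR-589-5p, 4.47 for miR-146a-5p (4.25 to 4.71) and 4.81 for miR-146b-5p (4.56 to 5.07), and the interval of miR-589-5p lay under the other two. Against the input, miR-146b-5p reached 8.72 times (8.29 to 9.16), whereas miR-146a-5p stood at 1.72 times (1.67 to 1.78). Without PD-L1 3'UTR replicate 1 the ratios to the MS2 control were 4.88 for miR-146a-5p and 4.96 for miR-146b-5p, and those to the input were 1.88 and 9.01.

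The hairpin of miR-873 lies 25172 bases from that of miR-876 (GRCh38.p14), also in *LINGO2*, and gives the levels of a neighbor. miR-873-5p had 27, 15 and 31 counts in the input, 7, 0 and 2 in the MS2 control and 6, 9 and 7 on the 3'UTR. In the lysate it was thus read more often than miR-876-3p. Its ratio of the 3'UTR to the input was 0.955 (0.564 to 1.56) and that of miR-873-3p 0.667 (0.326 to 1.26). Nothing is read from a contrast with miR-876-3p, which was chosen for its retention. Without PD-L1 3'UTR replicate 1 the ratios were 1.16 (0.628 to 2.01) and 0.555 (0.196 to 1.29). Against the MS2 control, the 3'UTR ratio of miR-873-5p was 3.73 (1.65 to 9.19), with libraries that overlapped. Without that replicate it was 4.51 (1.88 to 11.6), with no overlap. For miR-873-3p the ratios to the MS2 control were 0.831 (0.375 to 1.75) and 0.692 (0.23 to 1.76). Neither arm of miR-873 passed the filter.

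The miRNAs whose log2 CPM followed each leading arm most closely over the 9 libraries were named as a description. These correlations rest on 3 groups of shared libraries, so that any miRNA high with the 3'UTR alone scores well. miR-190a-5p was most like miR-374a-3p (Pearson's r = 0.995), miR-31-5p (0.982) and miR-17-5p (0.982), the last an oncogenic miRNA of the miR-17-92 cluster. miR-589-3p was most like miR-106a-5p (0.995) and miR-106b-5p (0.994), which carry the seed of miR-17-5p, and then miR-425-5p (0.986). miR-876-3p was most like miR-130b-3p (0.993), miR-18a-5p (0.991) and miR-140-5p (0.988), the last known from cartilage. Among themselves the leading arms had r = 0.974 (miR-190a-5p with miR-589-3p), 0.964 (miR-190a-5p with miR-876-3p) and 0.956 (miR-589-3p with miR-876-3p).

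These companions were far better covered. miR-374a-3p, for example, had 61.6 CPM ± 10.8 (SD, n = 3) in the input, 33.8 ± 15.1 in the MS2 control and 1707 ± 251 with the 3'UTR. miR-140-5p had 76 ± 4.57, 97.9 ± 6.95 and 2702 ± 227. The latter shares a run of 7 bases, bases 3 to 9 in each, with miR-876-3p, although their seeds are not the same.
miR-876-3p: uGGUGGUUuacaaaguaauuca
miR-140-5p: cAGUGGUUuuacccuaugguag

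Matches to the seeds were sought on the sense strand of the *CD274* 3'UTR, exon 7, 2692 bases at chr9:5467863-5470554 (GENCODE, GRCh37). How much of it the bait covered was not analysed here. A 7mer-m8 is the complement of bases 2 to 8, a 7mer-A1 that of bases 2 to 7 followed by A, and an 8mer is both together. miR-876-3p was the only member with such matches and had 2 of them. They are shown with the bases upstream, the match in capitals.
miR-876-3p 7mer-m8, chr9:5468693-5468699: tcatttcatcgctgtAACCACC
miR-876-3p 8mer, chr9:5469711-5469718: atatacatttagacAACCACCA
The starts of these matches lie 1018 bases apart. AACCACC occurred in 12.5% of 4583 annotated 3'UTR windows of the same length and its 8mer in 4.8%, while 0.851% held AACCACC more than once. Of the 371 tested miRNAs with a sequence, 104 (28%) had a 7mer or 8mer match in the *CD274* 3'UTR, 33 (8.89%) had an 8mer, and 20 (5.39%) had at least 2 matches.

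miR-190a-5p and miR-589-3p had no 7mer or 8mer match in these letters. For miR-190a-5p neither ACATATC nor CATATCA was found, which 11.6% and 14.7% of the windows held, and not even the 6mer CATATC, which 35.5% held. For miR-589-3p neither TGTTCTG (30.9% of windows) nor GTTCTGA (19.2%) was found, but the 6mer GTTCTG, held by 59.2%, lay at chr9:5469274-5469279. The partner arms miR-589-5p and miR-876-5p had no match, and miR-190a-3p had the 6mer TATATA at 2 positions. The leading arms thus differed in their matches, and whether a match bears on retention was not tested. Of the companions named above, miR-17-5p, miR-106a-5p, miR-106b-5p and miR-140-5p had 1 8mer match each, while miR-374a-3p, miR-31-5p, miR-130b-3p and miR-18a-5p had a 6mer only. The companion miR-425-5p had no sequence under that name and was not searched. Matches were also found for the neighbor miR-873, whose levels on the 3'UTR overlapped with the input. Its ratio of the 3'UTR to the MS2 control was 3.73 (1.65 to 9.19) for the 5p arm and 0.831 (0.375 to 1.75) for the 3p arm. miR-873-5p had 1 7mer-m8 and 1 7mer-A1, and miR-873-3p had 1 7mer-A1. The relatives miR-146a-5p, miR-146b-5p and miR-190b-5p had no match of any of these kinds, nor a 6mer. The match counts describe letters in the reference 3'UTR and not sites in use.

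**Figure D4:**
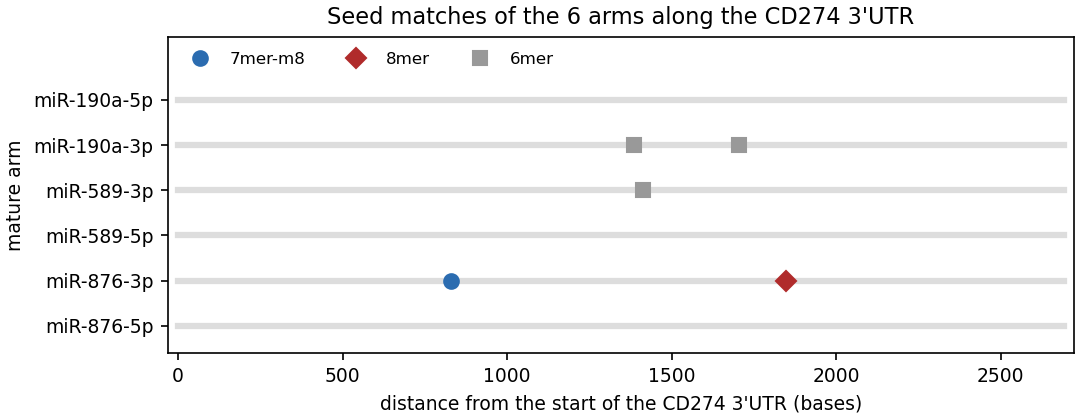
Seed matches of the 6 member arms along the *CD274* 3'UTR, in bases from its start, with circles for 7mer-m8, diamonds for 8mer and squares for 6mer matches. miR-876-3p has a 7mer-m8 at position 831 and an 8mer at position 1849, miR-190a-3p and miR-589-3p have 6mers only, and the other 3 arms have no match.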

How the data were processed

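Small RNA of ES-2 cells was measured in 9 libraries, grouped and numbered by the sample titles. The deposited values are raw counts, whole reads per mature miRNA locus. Per the submitters' processing notes and the study's methods, the authors made these counts with cutadapt 1.18, Bowtie2 2.2.6 (hg38) and featureCounts 1.6.3 on miRBase mature miRNAs; strand and multi-mapping settings are not given in the sources used here. The 2883 locus rows were summed to 2652 names (169 had several loci). Replicates differed beyond sampling noise and were kept apart; the labels do not say whether they came from separate cultures, so p-values measure only the spread between these samples, which may be technical.

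Counts were filtered with filterByExpr by group (408 names) and fitted with edgeR 4.0.16 in R 4.3.3 (TMM, 3 group means, glmQLFTest, two-sided, Benjamini-Hochberg adjustment, threshold 0.05), a procedure tested on simulated data. CPM are TMM-scaled. Ratios use pooled counts over scaled library sizes with exact conditional binomial intervals (95%); against a group at 0, 3 counts over the group set the bound. Intervals and bounds cover counting error only, since PCR reads are not independent molecules. The members, the lists and the marker miRNAs were chosen with earlier results of these data known. Named miRNAs are the 6 arms, the 3 miRNAs most correlated with each leading arm (log2 CPM, prior count 2), relatives by bases 2 to 8 or tested ones by bases 2 to 7, miR-190b and miR-873; miR-323a-5p, miR-1290 and miR-7153-5p, outside this rule, were named after their values were seen. Alternatives were DESeq2 1.42.0 and its size factors, library totals, separate loci, a replicate block, fits of only the groups compared, no filter, a stricter one (mean CPM of 10 or more), and leaving out each library. Seed letters were searched in 3'UTRs of GRCh37, a different build from that of the counts; no coordinates were converted.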

Additional observations from a re-analysis of the deposited data

How the results depend on the processing

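For the 11 log2 fold changes of the detected arms given with no test, 178 alternative values were computed. All 178 kept their direction, and 23 moved by more than 1 SD between replicates. For the leading arms in the comparisons with the 3'UTR, the choice of members had set that direction. The tested value, miR-589-5p in the MS2 control against the input, lost its call with library totals (-0.21, adjusted p of 0.371 by edgeR) and kept it in the other alternatives run. Over all its alternatives the value ran from -1.12 to -0.21 and the adjusted p from 0.00059 to 0.371, and leaving out a library gave -1.07 to -0.70, all called. Library totals shifted the median of all tested miRNAs by 0.57 (log2) in the PD-L1 3'UTR against the input and by 0.63 in the MS2 control against the input. They turned the split of calls from 139 higher and 132 lower to 192 and 90 in the former, and from 134 and 151 to 199 and 104 in the latter. For miR-589-5p, PD-L1 3'UTR against input, they raised the log2 fold change from 0.26 to 0.83. With no filter this value fell to 0.01, and without input replicate 2 to 0.04, so its direction is not settled. Without MS2 control replicate 2, miR-190a-5p moved from 7.11 to 11.40 (PD-L1 3'UTR against MS2 control) and from -1.44 to -5.72 (MS2 control against input), since that library holds all of its MS2 control counts. A mean of at least 10 CPM left miR-589-3p and miR-876-3p with no value. The number of miRNAs called stayed within 1.5 times in every alternative run, from 220 to 323 for the PD-L1 3'UTR against the MS2 control, from 242 to 362 against the input and from 247 to 361 for the MS2 control against the input. DESeq2 gave no adjusted p for 4 miRNAs.

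The deviations of same-numbered libraries from their group means correlated between -0.18 and 0.13, and in no comparison did all 3 pairs exceed 0.1. Such weak correlations cannot decide whether same-numbered libraries were paired, which the labels do not state. With the replicate block, 243, 263 and 276 miRNAs were called in the 3 comparisons in place of 245, 271 and 285, and miR-589-5p had -0.84 in the MS2 control against the input. Every library correlated best with its own number between the PD-L1 3'UTR and the MS2 control, as a hint from the data only, but not in the other comparisons. Depth limits the values of the arms at or near 0: in an input library 1 read is the whole level of miR-876-3p.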
